A study of Homo sapiens with 9 samples.

Results

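Prolonged nutrient and oxygen deprivation of PANC-1 cells was examined here as the contrast of 14 days of deprivation with day 0, in 3 libraries each, 6 of the 9 RNA-seq libraries of the series. PANC-1 is an established epithelial-like cell line from a human pancreatic ductal tumour, a tumour type whose cells often grow with little blood supply. Members were the samples labelled day 0 and day 14. The deprivation medium was DMEM with amino acids at 20% of their usual level, fetal calf serum at 0.5% and glucose at 2.5 mM, and the labels did not state the oxygen level. The labels state no additional treatment, and the columns of both days are headed WT, with no altered gene named. The same growth text was attached to every sample, so the state of the day 0 cells before collection was not given. No undeprived culture accompanied the later days, and therefore deprivation, time in culture and any batch by day cannot be told apart. Whether replicates were separate cultures was not stated, so the p-values measure only the spread between these libraries, which may be technical. In RNA from whole cultures, fewer cells of a kind and less RNA per cell cannot be told apart.

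Cells short of oxygen stabilise hypoxia-inducible factors (HIF), whose target genes favour glycolysis, blood vessel growth and lower oxygen use. Amino acid shortage activates the kinase GCN2, and stress in the endoplasmic reticulum activates PERK. Both raise translation of the transcription factor ATF4, which induces amino acid synthesis, uptake and tRNA charging. Loss of growth factor and nutrient signals lowers mTORC1 activity, frees FOXO factors and the autophagy programme, and withdraws cells from the cell cycle, where repressor complexes silence E2F and mitotic genes.

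Expression was given as TPM (a length-corrected share of the transcripts of each library that keeps no sequencing depth), so the depth was unknown. A log2 change below is the difference between the day means of log2(TPM + 1), with its standard error (± SE), and understates the change of low genes. Genes that reached 1 TPM in 3 or more of these libraries were tested (13615 genes), and a gene rose or fell when its adjusted p was under 0.05. With all 6 libraries, 2415 genes rose (17.7%) and 586 fell (4.3%), and the median change of all genes was 0.44. Day 0 replicate 2 stood apart: its correlation with the other day 0 libraries was 0.869 and 0.873, against 0.978 between those 2 and 0.938 to 0.952 within day 14, and 24.1% of its TPM lay in ribosomal protein genes, against 10.3% to 15% in the other 5. Without it, 4525 of 13511 genes rose (33.5%) and 1807 fell (13.4%), with a median of 0.24, and 2409 of the 2415 rises and 543 of the 586 falls were among them.

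TPM is relative, so a median-ratio scaling that aligns the typical gene across libraries was run beside it. It placed the median of all genes at -0.06 and called 1300 of 13455 genes higher (9.66%) and 1474 lower (11.0%), or 2803 (20.8%) and 3428 (25.5%) of 13449 without day 0 replicate 2. The share of calls that were rises thus went from 80.5% to 46.9%, and no gene called with all 6 libraries was called the opposite way. In all 4 fits (with and without day 0 replicate 2, each with both scalings), 1288 genes rose (9.46%) and 505 fell (3.71%). The libraries of the 2 days did not overlap for 5840 genes that were higher at day 14 (42.9%) and 1393 that were lower (10.2%). Non-overlap was a condition for naming the 15 largest rises and 15 largest falls, so for those genes it is no support. Because scaling shifts the typical gene, the median of a list is set against that of the whole table. The counts of a list are likewise to be read against the 17.7% of all genes that rose and 4.3% that fell. Without day 0 replicate 2 these shares were 33.5% and 13.4%.

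With day 0 replicate 2 kept in, the calls depended on each day 14 library: 235, 64 and 98 genes rose and 82, 22 and 28 fell when day 14 replicate 1, 2 or 3 was left out. Without day 0 replicate 1 or 3, 1347 or 1308 genes rose and 236 or 209 fell. When day 0 replicate 2 was left out together with 1 day 14 library, 3334 to 4244 genes rose and 1351 to 2399 fell. Of the tested genes, 534 were under 1 TPM in all day 0 libraries and passed the filter through day 14 only (435 of them called higher), and 49 passed it through day 0 only (42 called lower). Such a gene had to differ, so its call is no support. This held for 3 of the 27 hypoxia rises (EGLN3, PDK3, NDUFA4L2), 3 of the 22 ATF4 rises (ALDH1L2, VLDLR, CTH), 3 of the 10 FOXO rises (FOXO4, INSR, PIK3IP1), and for 6 rises and 3 falls among the named genes. The same was true of the rises of SLC2A3 (glycolysis), ABCG1 (cholesterol), PDK3 (TCA cycle), DUSP4 (immediate early), RORA (clock) and KDM7A (chromatin). It was also true of the fall of ST14 (keratins and junctions), and the counts of these lists below include such members. The named-gene rule took 180 genes, of which 170 were called (100 higher, 70 lower). Of these, 32 kept their call in all 6 fits with 1 library left out, and 148 kept it in all 3 fits without day 0 replicate 2 and 1 day 14 library. In those 3 fits the threshold was missed at least once by TXNIP, PFKFB4, HMOX1, NOP16, RRP9, NME1, JUN, RELB, TWIST2, DHRS9 and SERPINE2, and the others that did not keep the call failed the filter on low values. Below, "left-out counts" are the counts of a list with 1 library left out, in the order day 0 replicates 1 and 3, then day 14 replicates 1, 2 and 3.

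**Figure D1:**
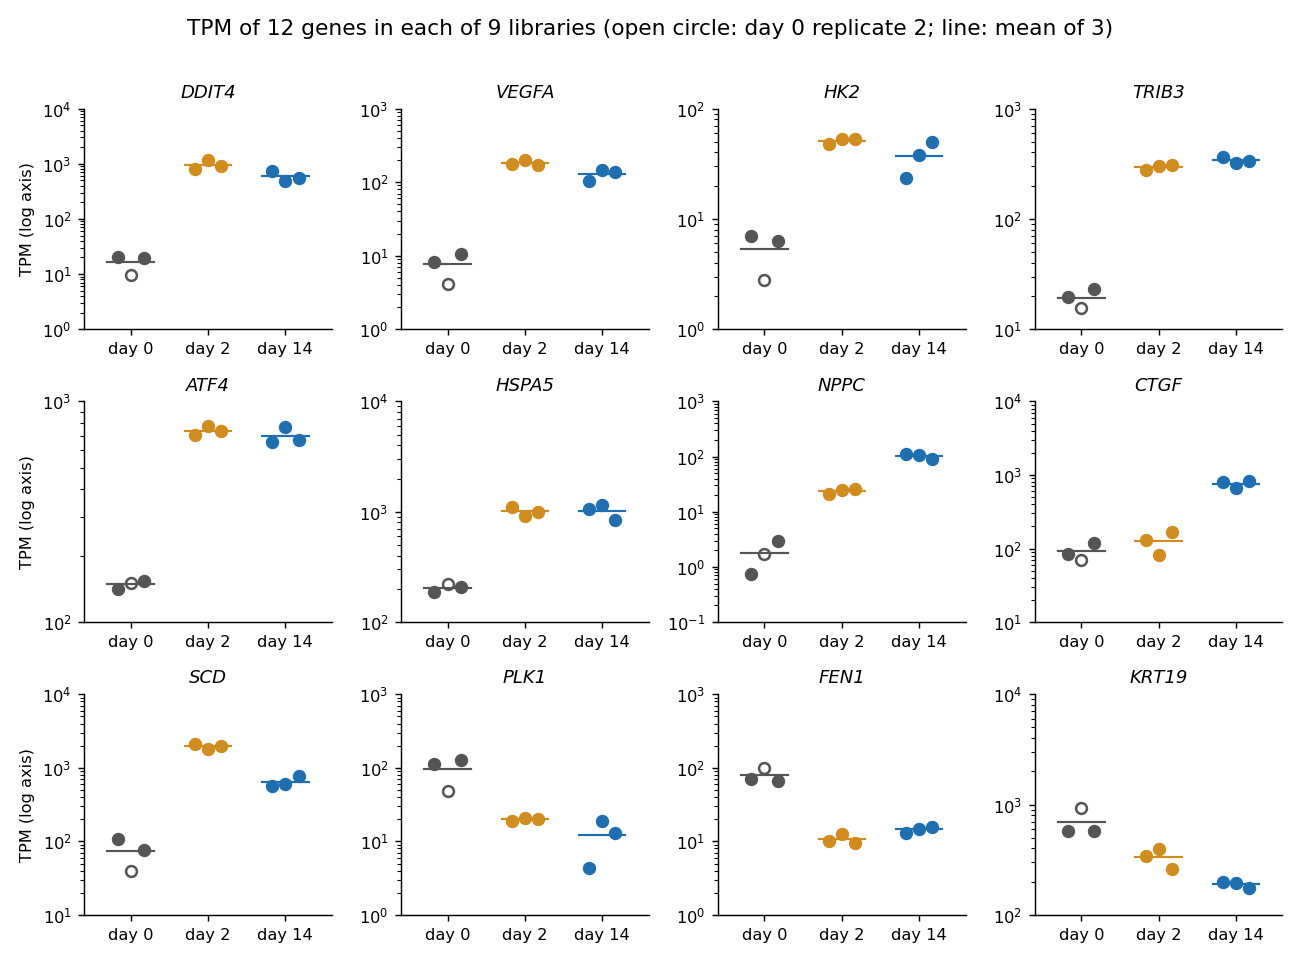
TPM (log axis, scaled per panel) of 12 named genes in the 9 libraries, grouped by day, each point 1 library, each line the mean of 3 and the open circle day 0 replicate 2. All 3 day 14 libraries lie above the 3 day 0 libraries for DDIT4, VEGFA, HK2, TRIB3, ATF4, HSPA5, NPPC, CTGF and SCD, and below them for PLK1, FEN1 and KRT19. Over all tested genes, 42.9% lay above and 10.2% below in this way.

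Most HIF target genes rose over the 14 days. Of 34 tested members of a list of 38 hypoxia-induced genes, 27 rose, none fell and 7 did not pass, with a median change of 1.99, which is 1.55 above that of all genes. Without day 0 replicate 2 the rises numbered 28, under median-ratio scaling 21, and in all 4 fits 21. The left-out counts were 23, 24, 16, 6 and 5, and leaving out day 0 replicate 2 with 1 day 14 library gave 25 to 29. DDIT4, whose product REDD1 inhibits mTORC1, stood at 20.3, 9.72 and 19.5 TPM in the day 0 libraries and 753, 492 and 552 TPM at day 14 (log2 change 5.14 ± 0.34 SE, adjusted p = 0.00172, or 4.82, adjusted p = 0.000674 without day 0 replicate 2). The lowest day 14 library was well above the highest day 0 library, and day 0 replicate 2 was the lowest of all.

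VEGFA, the main angiogenic growth factor, had 8.15, 4.14 and 10.5 TPM at day 0 and 105, 144 and 137 TPM at day 14 (log2 change 3.98 ± 0.34 SE, adjusted p = 0.0028). NDRG1, a stress-induced cytosolic protein, had 4.85, 2.32 and 4.58 TPM and 46.9, 243 and 109 TPM (log2 change 4.51 ± 0.59 SE, adjusted p = 0.00678). The day 14 libraries of NDRG1 spread widely, with replicate 1 the lowest. MXI1, a MAX partner that opposes MYC, went from 3.03, 3.49 and 3.26 TPM to 32, 37 and 44.7 TPM (log2 change 3.18 ± 0.23 SE, adjusted p = 0.00227). BNIP3L, a receptor for removal of mitochondria, went from 8.29, 8.34 and 10.5 TPM to 73, 94.5 and 106 TPM (log2 change 3.19 ± 0.24 SE, adjusted p = 0.00227). These 2 genes varied little within each day. KDM3A, an oxygen-dependent histone demethylase, rose by 3.14 ± 0.48 (log2 ± SE), P4HA1, a collagen prolyl hydroxylase, by 2.82 ± 0.38, PDK1, which restrains pyruvate dehydrogenase, by 2.37 ± 0.38, and PLOD2, a collagen lysyl hydroxylase, by 1.89 ± 0.38. Calls were lost for NDRG1 without day 14 replicate 3 (adjusted p up to 0.0548) and KDM3A, P4HA1, PDK1 and PLOD2 without day 14 replicate 2 or 3 (adjusted p up to 0.0998). Median-ratio scaling ended the call of PLOD2 (adjusted p = 0.0519).

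Of the HIF subunit genes, none was called with all 6 libraries. HIF1A, the oxygen-regulated subunit, had 42.4, 3.29 and 35.8 TPM at day 0 and 48.6, 34.2 and 23.3 TPM at day 14 (log2 change 0.88 ± 0.88 SE, adjusted p = 0.487), and without day 0 replicate 2 the sign turned (-0.2, adjusted p = 0.619). EPAS1, which encodes HIF-2 alpha, had 58.4, 7.8 and 44.9 TPM and 63.5, 52.7 and 43.3 TPM (log2 change 0.89 ± 0.7 SE, adjusted p = 0.372). Apart from day 0 replicate 2, which was low for both genes, the libraries of the 2 days overlapped. ARNT, their common partner, missed the threshold with all 6 libraries (log2 change 1.24 ± 0.52 SE, adjusted p = 0.126) and was called without that library (0.63, adjusted p = 0.0135).

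Bases upstream of the gene start are shown for DDIT4 and AK4, a mitochondrial adenylate kinase. Both rose and hold the core letters of the hypoxia response element (ACGTG, on either strand) in this window. They serve as examples, and other members that hold the letters may have risen more than AK4. The windows are the 250 bases before the start in RefSeq's GRCh38.p14 table, for DDIT4 chr10:72273674-72273923, plus strand and for AK4 chr1:65147302-65147551, plus strand, printed 5′ to 3′ along the gene with the element in capitals.
DDIT4: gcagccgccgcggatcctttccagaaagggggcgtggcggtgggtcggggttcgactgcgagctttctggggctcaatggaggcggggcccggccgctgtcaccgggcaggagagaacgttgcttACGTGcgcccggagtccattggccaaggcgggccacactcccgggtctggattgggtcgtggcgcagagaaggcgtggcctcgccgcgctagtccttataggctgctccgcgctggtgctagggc
AK4: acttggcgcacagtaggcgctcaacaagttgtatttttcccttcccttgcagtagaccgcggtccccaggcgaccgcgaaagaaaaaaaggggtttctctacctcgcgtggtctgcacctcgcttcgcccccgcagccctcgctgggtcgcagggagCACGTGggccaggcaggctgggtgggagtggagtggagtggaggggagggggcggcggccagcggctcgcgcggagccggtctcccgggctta

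The single match of DDIT4 starts 125 bases before the gene start. In AK4 the letters occur on both strands of 1 site. Of the 28 tested hypoxia-list genes with a promoter in the table, 16 held ACGTG (57.1%), against 18.7% of all 27305 promoters and 23.7% of the 10420 distinct promoters matched to tested genes. Among the 23 of those 28 that rose, 14 held it. A match of letters is a description and not a bound site.

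Genes of glucose use rose in part with all 6 libraries. Of 21 tested genes for glucose uptake and glycolysis, 7 rose and none fell (median 1.02, 0.58 above all genes), 9 rose without day 0 replicate 2, and 4 rose under median-ratio scaling. Under that scaling without day 0 replicate 2, 4 rose and 2 fell. Rises were then no more frequent than over all genes (20.8%). Left-out counts came to 4, 3, 2, 0 and 0. SLC2A1, the glucose transporter GLUT1, had 31.4, 6.66 and 31.6 TPM at day 0 and 114, 134 and 158 TPM at day 14 (log2 change 2.75 ± 0.57 SE, adjusted p = 0.0211, or 2.06, adjusted p = 0.0014 without day 0 replicate 2). HK2, the hexokinase that traps glucose in the cell, had 6.95, 2.79 and 6.32 TPM and 23.6, 38.3 and 49.7 TPM (log2 change 2.6 ± 0.4 SE, adjusted p = 0.0103). The days did not overlap for either gene, as was so for 42.9% of all genes on the higher side. In day 0 replicate 2 both genes stood well below the other day 0 libraries. PFKFB4, which sets the level of the glycolytic activator fructose 2,6-bisphosphate, had 1.76, 1.06 and 1.93 TPM and 4.48, 16.9 and 35.4 TPM (log2 change 2.58 ± 0.66 SE, adjusted p = 0.0355) and missed the threshold under median-ratio scaling (2.14, adjusted p = 0.0634). GAPDH, a glycolytic enzyme often used as a reference gene, was not called (log2 change 0.52 ± 0.39 SE, adjusted p = 0.355; -0.07, adjusted p = 0.911 under median-ratio scaling). The threshold was missed by SLC2A1 without day 14 replicate 1, 2 or 3 (adjusted p up to 0.101), HK2 without day 14 replicate 2 or 3 (adjusted p up to 0.072), and PFKFB4 without day 0 replicate 1 or 3 or day 14 replicate 2 or 3 (adjusted p up to 0.138). Of 20 tested members with a promoter, 8 held ACGTG (40.0%).

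The TCA cycle and pyruvate dehydrogenase list had 5 rises and 2 falls among 31 genes (median 0.04), and 4 and 9 without day 0 replicate 2. Rises in the list were no more frequent than over all genes (17.7%, or 33.5% without that library). Its rises were the pyruvate dehydrogenase kinases PDK1, PDK2 and PDK3, the phosphatase PDP1, which acts against them, and IDH1, the cytosolic isocitrate dehydrogenase. PDK2 changed by 1.4 ± 0.31 and IDH1 by 1.53 ± 0.25, the latter not called under median-ratio scaling (0.95, adjusted p = 0.126). The falls were SUCLG1 of succinyl-CoA ligase (-1.54 ± 0.21) and the malate dehydrogenase MDH2 (-0.94 ± 0.26). The left-out counts were 3, 3, 2, 0 and 0 for rises and 1, 1, 1, 0 and 0 for falls. Leaving out 1 library ended the calls of PDK2 without day 14 replicate 1, 2 or 3 (adjusted p up to 0.121), IDH1 and SUCLG1 without day 14 replicate 2 or 3 (adjusted p up to 0.0795), and MDH2 without day 0 replicate 1 or 3 or day 14 replicate 1, 2 or 3 (adjusted p up to 0.177).

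Most genes of the ATF4 programme rose too. Of 27 genes of the amino acid response, 22 rose, 1 fell and 4 did not pass (median 1.9, 1.46 above all genes). Without day 0 replicate 2, 22 rose and 3 fell, and 21 rises and 1 fall were called in all 4 fits. The left-out counts for rises were 21, 22, 15, 6 and 10, and the fall was lost in each of these fits. ATF4 itself had 141, 151 and 153 TPM at day 0 and 658, 769 and 671 TPM at day 14 (log2 change 2.23 ± 0.19 SE, adjusted p = 0.0028). Its libraries lay close together within each day, day 0 replicate 2 included. ATF3, a stress-induced partner of ATF4, had 1.62, 0.386 and 2.64 TPM and 97.7, 138 and 139 TPM, the largest rise of the comparison among the named genes with a level above 0 at day 0 (log2 change 5.72 ± 0.39 SE, adjusted p = 0.00188, or 5.33, adjusted p = 0.000675 without day 0 replicate 2).

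TRIB3, a pseudokinase that feeds back on ATF4, had 19.5, 15.6 and 23 TPM at day 0 and 364, 319 and 336 TPM at day 14 (log2 change 4.08 ± 0.22 SE, adjusted p = 0.00171). SESN2, a leucine-binding inhibitor of mTORC1 signalling, had 6.12, 1.93 and 6.81 TPM and 80.4, 91.3 and 71.6 TPM (log2 change 3.9 ± 0.4 SE, adjusted p = 0.0043). NUPR1, a small stress-induced chromatin protein, had 10.9, 24.8 and 10 TPM and 235, 249 and 190.1 TPM (log2 change 3.9 ± 0.36 SE, adjusted p = 0.00326). Each of the 3 kept its call with any 1 library left out. SHMT2, the mitochondrial serine hydroxymethyltransferase, was the member that fell, from 84.3, 70.9 and 90.5 TPM to 40.4, 38.9 and 37.6 TPM (log2 change -1.05 ± 0.2 SE, adjusted p = 0.0165). The other members that rose were DDIT3, PPP1R15A, CHAC1, CTH, ASNS, MTHFD2, PSAT1, JDP2, CEBPG, GPT2, PHGDH, CEBPB, GDF15, CBS, PYCR1, ALDH1L2 and VLDLR, which include enzymes of asparagine, serine, proline and cysteine synthesis.

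Upstream sequence is shown for ATF3 and for CHAC1, a glutathione-degrading enzyme, the called members with the largest rises that hold the ATF4 response element TGATGNAA on either strand, in capitals. In GRCh38.p14 the windows are chr1:212565157-212565406, plus strand, and chr15:40953221-40953470, plus strand, where the element lies on the reverse strand.
ATF3: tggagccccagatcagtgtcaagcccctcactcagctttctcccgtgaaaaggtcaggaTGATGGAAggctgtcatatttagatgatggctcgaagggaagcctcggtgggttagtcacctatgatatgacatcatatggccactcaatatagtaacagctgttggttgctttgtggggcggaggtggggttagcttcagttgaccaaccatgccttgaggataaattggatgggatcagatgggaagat
CHAC1: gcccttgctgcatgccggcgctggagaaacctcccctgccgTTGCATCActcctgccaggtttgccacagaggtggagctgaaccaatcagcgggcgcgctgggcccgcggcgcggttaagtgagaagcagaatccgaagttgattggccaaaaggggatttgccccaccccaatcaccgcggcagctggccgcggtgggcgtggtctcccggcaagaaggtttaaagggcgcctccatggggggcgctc

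Of 20 tested members of the ATF4 list with a promoter in the table, 3 held these letters (15%), against 3.19% of all promoters and 1.28% of those matched to tested genes. The windows are short, and a gene may start at a place the table does not use.

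Amino acid transporter and tRNA synthetase genes rose in part. Of 14 tested amino acid transporters, 9 rose and none fell (median 1.55), with 10 rises without day 0 replicate 2, 7 under median-ratio scaling and left-out counts of 8, 7, 2, 0 and 0. SLC7A11, the cystine and glutamate exchanger, had 1.93, 1.37 and 2.81 TPM at day 0 and 12, 23.2 and 26.3 TPM at day 14 (log2 change 2.78 ± 0.36 SE, adjusted p = 0.00667). SLC6A9, a glycine transporter, changed by 2.81 ± 0.49 and SLC7A1, a transporter of cationic amino acids, by 2.53 ± 0.63. Among 20 cytosolic aminoacyl-tRNA synthetases, which charge tRNAs, 10 rose and 1 fell (median 1.19), or 13 and 4 without day 0 replicate 2 and 6 and 4 under median-ratio scaling. Left-out counts came to 8, 10, 2, 0 and 0 for rises and 1, 1, 0, 0 and 0 for falls. CARS, for cysteine, went from 63.1, 39.4 and 70.6 TPM to 238, 251 and 253 TPM (log2 change 2.12 ± 0.26 SE, adjusted p = 0.00626), AARS, for alanine, changed by 1.93 ± 0.28 and SARS, for serine, by 1.73 ± 0.24. FARSA, a subunit of the enzyme for phenylalanine, went the other way, from 98.2, 73 and 104 TPM to 31.4, 30.7 and 29 TPM (log2 change -1.55 ± 0.22 SE, adjusted p = 0.0081). With 1 library left out, calls ended for SHMT2 without day 0 replicate 1 or 3 or day 14 replicate 1, 2 or 3 (adjusted p up to 0.1), SLC6A9, SLC7A1, AARS and FARSA without day 14 replicate 1, 2 or 3 (adjusted p up to 0.126), and SLC7A11, CARS and SARS without day 14 replicate 2 or 3 (adjusted p up to 0.065).

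The endoplasmic reticulum list split. Of 23 folding and stress genes, 4 rose and 3 fell (median 0.41, close to that of all genes), or 6 and 7 without day 0 replicate 2. Over all genes, 17.7% rose and 4.3% fell, or 33.5% and 13.4% without that library. Rises in this list were thus no more frequent than in the whole table. HSPA5, the luminal chaperone BiP, had 188, 219.8 and 208 TPM at day 0 and 1069, 1144 and 850.4 TPM at day 14 (log2 change 2.3 ± 0.22 SE, adjusted p = 0.00326). HERPUD1, a component of the degradation machinery, had 11.6, 11.9 and 13.2 TPM and 79.5, 76.4 and 80 TPM (log2 change 2.6 ± 0.19 SE, adjusted p = 0.00227). Both kept their calls with any 1 library left out. ATF6, a stress sensor, changed by 2.09 ± 0.4, whereas the secreted stress proteins CRELD2 and MANF changed by -1.42 ± 0.36 and -1.41 ± 0.29 and SEC61B of the translocon by -1.1 ± 0.25. No longer called were ATF6 and MANF without day 14 replicate 1, 2 or 3 (adjusted p up to 0.104), CRELD2 without day 0 replicate 3 or day 14 replicate 1, 2 or 3 (adjusted p up to 0.14), and SEC61B without day 0 replicate 1 or 3 or day 14 replicate 1, 2 or 3 (adjusted p up to 0.132). The left-out counts were 4, 4, 3, 2 and 2 for rises and 2, 1, 0, 0 and 0 for falls.

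More autophagy genes than not rose. Of 29 autophagy genes, 17 rose and none fell (median 1.11, 0.67 above all genes). With day 0 replicate 2 left out, 21 rose and 1 fell, and median-ratio scaling gave 10 rises and 1 fall. Left-out counts came to 8, 11, 5, 3 and 4, against 21 to 22 when day 0 replicate 2 was left out as well as 1 day 14 library. GABARAPL1, an ATG8-family protein of the autophagosome membrane, had 7.19, 3.24 and 8.79 TPM at day 0 and 93.6, 99.1 and 71.9 TPM at day 14 (log2 change 3.66 ± 0.36 SE, adjusted p = 0.00363). MAP1LC3B, the related LC3B gene, had 38.7, 42.7 and 33.7 TPM and 335, 327 and 234 TPM (log2 change 2.92 ± 0.23 SE, adjusted p = 0.00269). Neither gene overlapped between days, as was so for 42.9% of all genes on the higher side. Of 36 lysosomal hydrolase and membrane protein genes, 3 rose and 2 fell (median 0.46), or 10 and 7 without day 0 replicate 2. NPC1, the cholesterol exporter, changed by 2.21 ± 0.55, PSAP, the precursor of the saposins, by 1.28 ± 0.27, the hydrolase IDUA by 1.04 ± 0.28, the membrane protein CD63 by -0.91 ± 0.23 and the galactosidase GLA by -0.85 ± 0.21. Under median-ratio scaling the threshold was missed by PSAP (adjusted p = 0.222) and IDUA (adjusted p = 0.272). Calls were also lost for NPC1 without day 14 replicate 1, 2 or 3 (adjusted p up to 0.132), PSAP without day 0 replicate 3 or day 14 replicate 1, 2 or 3 (adjusted p up to 0.113), and IDUA, CD63 and GLA without day 0 replicate 1 or 3 or day 14 replicate 1, 2 or 3 (adjusted p up to 0.166). The left-out counts were 3, 1, 0, 0 and 0 for rises and 0, 0, 0, 0 and 0 for falls.

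The FOXO list rose in part, and FOXO4, INSR and PIK3IP1 passed the filter through day 14 only. Those 3 of its 10 rises are no support, though the counts and the median below include them. Of 18 tested genes of the FOXO and insulin receptor list, 10 rose and none fell (median 1.62, 1.17 above all genes), with 11 rises without day 0 replicate 2, 9 rises and 1 fall under median-ratio scaling and left-out counts of 9, 9, 4, 1 and 1. TXNIP, an arrestin that limits glucose uptake, had 1.54, 0.55 and 0.764 TPM at day 0 and 7.46, 102 and 68.1 TPM at day 14 (log2 change 4.36 ± 0.9 SE, adjusted p = 0.0206). Day 14 replicate 1 stood far below the other 2. ARRDC3, another arrestin, went from 8.51, 6.55 and 9.29 TPM to 45, 77.9 and 66 TPM (log2 change 2.79 ± 0.28 SE, adjusted p = 0.00389), and the insulin-like growth factor carrier IGFBP3 changed by 2.98 ± 0.39. IRS2, FOXO1 and FOXO3 were among the other rises. MTOR was not called (log2 change 0.99 ± 0.77 SE, adjusted p = 0.369), and without day 0 replicate 2, its change was 0.03. Its level was 25.6, 2.6 and 25.9 TPM in the day 0 libraries, with replicate 2 far below the others.

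CDKN1A, the CDK inhibitor p21, missed the threshold with all 6 libraries (log2 change 1.0 ± 0.37 SE, adjusted p = 0.0958) and was called without day 0 replicate 2 (0.6, adjusted p = 0.0237). In the BCL2 family, 3 of 16 rose and 2 fell, or 6 and 3 without day 0 replicate 2. Its rises were near the share over all genes (17.7%, or 33.5% without that library). BBC3, the proapoptotic protein PUMA, had 1.67, 1.66 and 1.84 TPM at day 0 and 17.3, 17 and 20.1 TPM at day 14 (log2 change 2.81 ± 0.21 SE, adjusted p = 0.00227). BMF, also proapoptotic, had 0.311, 0.224 and 0.782 TPM and 6.81, 15.7 and 11.3 TPM, and passed the filter through day 14 only, so its call, 1 of the 3 rises, is no support. The antiapoptotic MCL1 changed by 1.23 ± 0.35, BCL2A1, also antiapoptotic, by -3.19 ± 0.61 and BCL2L12 by -0.83 ± 0.23. MCL1 was not called under median-ratio scaling (adjusted p = 0.0815). Calls were lost for TXNIP without day 0 replicate 3 or day 14 replicate 2 or 3 (adjusted p up to 0.0983), IGFBP3 without day 14 replicate 2 or 3 (adjusted p up to 0.0581), MCL1 and BCL2L12 without day 0 replicate 1 or 3 or day 14 replicate 1, 2 or 3 (adjusted p up to 0.186), and BCL2A1 without day 14 replicate 1, 2 or 3 (adjusted p up to 0.0871). Left-out counts of the BCL2 list were 2, 2, 1, 1 and 1 for rises and 1, 1, 0, 0 and 0 for falls.

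Many cell cycle genes fell, and among lists with 10 or more tested members the mitosis list had the lowest median. Of 47 mitosis and spindle genes none rose, 27 fell and 20 did not pass (median -1.59, or -2.03 relative to all genes). Of 45 DNA replication genes none rose, 25 fell and 20 did not pass (median -1.08, or -1.52 relative). Without day 0 replicate 2, 40 and 40 fell, and under median-ratio scaling 38 and 41 fell, with every fall called with all 6 libraries also called in all 4 fits. The left-out counts were 15, 15, 7, 2 and 1 for mitosis and 15, 14, 7, 2 and 4 for replication. When 1 day 14 library was left out along with day 0 replicate 2, they were 33 to 45 and 40 to 41.

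CCNB1, cyclin B1, had 163, 174 and 180.2 TPM at day 0 and 14.3, 37.1 and 25.5 TPM at day 14 (log2 change -2.8 ± 0.35 SE, adjusted p = 0.00616). PLK1, a kinase of mitotic entry and spindle assembly, had 114, 48.3 and 129 TPM and 4.29, 19.1 and 12.8 TPM (log2 change -2.99 ± 0.59 SE, adjusted p = 0.0177, or -3.43, adjusted p = 0.00594 without day 0 replicate 2). PTTG1, which encodes securin, had 178, 776 and 219 TPM and 14.8, 39.9 and 35.5 TPM (log2 change -3.45 ± 0.63 SE, adjusted p = 0.0151). Day 0 replicate 2 was the lowest day 0 library for PLK1 and by far the highest for PTTG1. Day 14 replicate 1 had the lowest level of all 3 genes. MKI67, the proliferation antigen, had 60.1, 7.1 and 52.8 TPM and 4.27, 15.4 and 12.3 TPM, missed the threshold with all 6 libraries (log2 change -1.51 ± 0.84 SE, adjusted p = 0.227) and was called without day 0 replicate 2 (-2.45, adjusted p = 0.0111).

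POLE2, a subunit of DNA polymerase epsilon, had 13.1, 13.7 and 12.7 TPM at day 0 and 1.47, 1.99 and 1.89 TPM at day 14 (log2 change -2.35 ± 0.21 SE, adjusted p = 0.00298). FEN1, the flap endonuclease, had 70.3, 99.2 and 67.2 TPM and 13, 14.9 and 15.8 TPM (log2 change -2.34 ± 0.24 SE, adjusted p = 0.00393). TYMS, thymidylate synthase, had 209, 172 and 182 TPM and 26.5, 45.9 and 50.4 TPM (log2 change -2.22 ± 0.29 SE, adjusted p = 0.00667). For these 3 genes all day 14 libraries lay below all day 0 libraries, day 0 replicate 2 included, as was so for 10.2% of all genes. PCLAF, a PCNA-binding factor, also fell (-2.84 ± 0.36), as did CDCA3, a factor for mitotic entry (-2.81 ± 0.33). The threshold was missed by CCNB1 without day 14 replicate 3 (adjusted p up to 0.0529), PLK1 and PTTG1 without day 14 replicate 1, 2 or 3 (adjusted p up to 0.0802), TYMS without day 14 replicate 2 (adjusted p up to 0.0549), and PCLAF without day 14 replicate 2 or 3 (adjusted p up to 0.0549).

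The cell cycle homology region (CHR, letters TTTGAA), where the repressor DREAM can bind, is shown in capitals in the upstream windows of PLK1 and of CDC20, an activator of the anaphase-promoting complex, the called members with the largest falls that hold it. In GRCh38.p14 they lie at chr16:23678639-23678888, plus strand, and chr1:43358731-43358980, plus strand.
PLK1: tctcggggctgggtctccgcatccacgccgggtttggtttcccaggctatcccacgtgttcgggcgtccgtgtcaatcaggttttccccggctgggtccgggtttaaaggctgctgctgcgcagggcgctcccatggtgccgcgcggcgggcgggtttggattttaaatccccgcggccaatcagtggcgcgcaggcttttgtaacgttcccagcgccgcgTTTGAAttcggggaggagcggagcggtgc
CDC20: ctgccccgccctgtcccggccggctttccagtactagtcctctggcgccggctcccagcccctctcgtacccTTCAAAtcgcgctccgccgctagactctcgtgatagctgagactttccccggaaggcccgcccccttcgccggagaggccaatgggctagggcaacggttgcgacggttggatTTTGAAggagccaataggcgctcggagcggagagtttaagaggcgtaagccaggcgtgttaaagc

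PLK1 held 1 match, which starts 29 bases before the gene start, and CDC20 held 2. Of 40 mitosis genes with a promoter, 21 held the letters on either strand (52.5%), against 13.6% of all promoters and 8.0% of those matched to tested genes. Among the 22 of them that fell, 9 held it. The E2F element TTTCNCGC occurred in 11 of 39 replication genes (28.2%), against 2.64% of all promoters and 4.2% of those matched to tested genes.

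Regulators of cell cycle exit moved both ways. Of 27 tested genes, 7 rose and 4 fell, or 13 and 8 without day 0 replicate 2, with left-out counts of 8, 7, 2, 1 and 2 for rises and 3, 3, 1, 0 and 0 for falls. CDKN1C, the CDK inhibitor p57, had 0.954, 0.827 and 1.66 TPM at day 0 and 13.3, 13.3 and 12.6 TPM at day 14 (log2 change 2.73 ± 0.23 SE, adjusted p = 0.0028). CCNG2, a FOXO-induced cyclin linked to arrest, had 0.344, 0.232 and 0.446 TPM and 6.26, 8.7 and 9.95 TPM. It passed the filter through day 14 only, as did CCND2 and KLF9, so these 3 of the 7 rises are no support. KLF4, a factor linked to cell cycle arrest, changed by 2.38 ± 0.38, and BTG1, CDKN1B, CCND2 and KLF9 were the other rises. Among the falls, CCNE2, a cyclin of S phase entry, changed by -1.75 ± 0.22, E2F1 by -1.51 ± 0.26, the inhibitor CDKN2C by -1.39 ± 0.25, and CCNE1 was the other. Leaving out 1 library ended the calls of KLF4, E2F1 and CDKN2C without day 14 replicate 1, 2 or 3 (adjusted p up to 0.0802) and CCNE2 without day 14 replicate 2 or 3 (adjusted p up to 0.0613). CCNG2, BMF, PPARA, PLIN4, TIMP3 and FLICR did not pass the filter on low values in some fits with 1 library left out.

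Histone and chromatin genes changed in both directions. Of 17 tested histone genes, 8 rose and 3 fell, or 9 and 4 without day 0 replicate 2. HIST1H2BD had 15.9, 12 and 13.5 TPM at day 0 and 281, 220.2 and 197 TPM at day 14 (log2 change 3.97 ± 0.23 SE, adjusted p = 0.00171), and HIST1H2AC and HIST1H4H rose by 4.32 ± 0.53 and 4.09 ± 0.43. The falls were H2AFX, the DNA damage histone (-1.45 ± 0.22), H2AFZ (-1.36 ± 0.21) and the centromeric CENPA (-1.67 ± 0.41). Histone genes are near-identical copies, so their single values are uncertain. Of 34 chromatin modifiers, 11 rose and 2 fell, or 20 and 7 without day 0 replicate 2. HDAC5, a class II deacetylase, had 0.492, 0.565 and 1.03 TPM and 8.94, 9.22 and 7.58 TPM (log2 change 2.51 ± 0.22 SE, adjusted p = 0.0028), and KDM6B, a demethylase of H3K27, changed by 3.05 ± 0.54. SUV39H1, a methyltransferase of heterochromatin, changed by -1.59 ± 0.29 and EED of Polycomb by -1.03 ± 0.29, which was not called under median-ratio scaling (adjusted p = 0.0546). With 1 library left out, calls ended for HIST1H2AC without day 14 replicate 2 or 3 (adjusted p up to 0.0549), H2AFX, H2AFZ, KDM6B and SUV39H1 without day 14 replicate 1, 2 or 3 (adjusted p up to 0.0843), and CENPA and EED without day 0 replicate 1 or 3 or day 14 replicate 1, 2 or 3 (adjusted p up to 0.156). The left-out counts for histones were 8, 7, 5, 3 and 4 and 2, 2, 0, 0 and 0, and for chromatin modifiers 8, 9, 2, 1 and 1 and 1, 1, 0, 0 and 0, rises before falls.

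**Figure D2:**
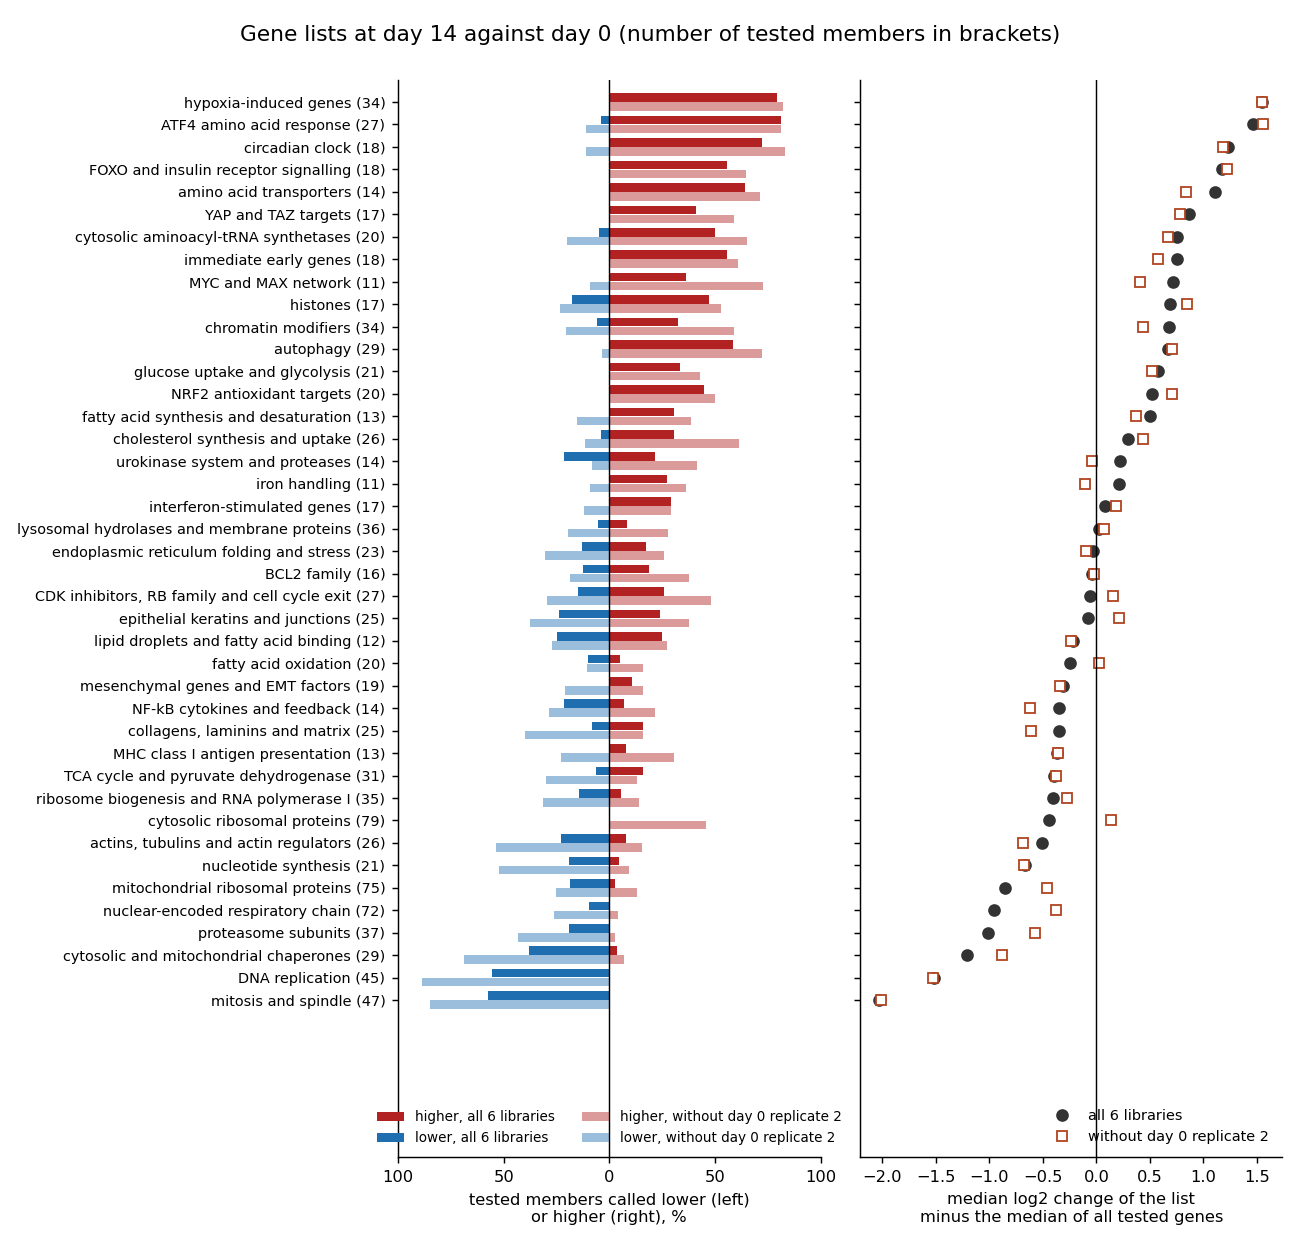
Left, the share of the tested members (number in brackets) of the plotted lists, each with 10 or more, that was called higher (red, to the right) or lower (blue, to the left) at day 14, with all 6 libraries (dark) and without day 0 replicate 2 (pale). Right, each list's median log2 change minus that of all genes under both fits, from 1.55 for hypoxia-induced genes to -2.03 for mitosis.

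With all 6 libraries, a minority of lipid synthesis genes rose. Of 26 genes of cholesterol synthesis and uptake, 8 rose and 1 fell (median 0.74), or 16 and 3 without day 0 replicate 2. Under median-ratio scaling 3 rose and 2 fell, or 11 and 7 when day 0 replicate 2 was also left out. SREBF2, the master regulator, changed by 2.61 ± 0.52. STARD4, a sterol carrier, had 2.27, 1.27 and 1.97 TPM at day 0 and 8.64, 12.9 and 13.4 TPM at day 14 (log2 change 2.15 ± 0.27 SE, adjusted p = 0.00633). INSIG1, the feedback inhibitor of the pathway, had 13.7, 13.4 and 10 TPM and 40.4, 28.2 and 40.4 TPM (log2 change 1.48 ± 0.25 SE, adjusted p = 0.013). EBP, a sterol isomerase, changed by -1.31 ± 0.34. Median-ratio scaling ended the calls of INSIG1 (adjusted p = 0.104) and EBP (adjusted p = 0.0538). Of 13 genes of fatty acid synthesis and desaturation, 4 rose and none fell, or 5 and 2 without day 0 replicate 2. Under median-ratio scaling 4 rose and 1 fell, or 4 and 3 when that library was also left out. SCD, the desaturase that makes oleate and needs oxygen, had 107, 39 and 75.9 TPM and 558, 611 and 782 TPM (log2 change 3.22 ± 0.39 SE, adjusted p = 0.00565), SREBF1 changed by 1.78 ± 0.22 and ACSS2, which makes acetyl-CoA from acetate, by 1.71 ± 0.29. No longer called were SREBF2, INSIG1 and ACSS2 without day 14 replicate 1, 2 or 3 (adjusted p up to 0.0925), STARD4, SCD and SREBF1 without day 14 replicate 2 or 3 (adjusted p up to 0.0581), and EBP without day 0 replicate 3 or day 14 replicate 1, 2 or 3 (adjusted p up to 0.143). Left-out counts for rises were 5, 4, 1, 0 and 0 for cholesterol and 4, 4, 2, 0 and 0 for fatty acids.

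Among 12 tested lipid droplet and fatty acid binding genes, 3 rose and 3 fell, and without day 0 replicate 2 3 and 3 of 11. FABP5, a fatty acid carrier, had 253, 469.5 and 185 TPM at day 0 and 12.7, 18.8 and 26.4 TPM at day 14 (log2 change -3.85 ± 0.42 SE, adjusted p = 0.00482). G0S2, an inhibitor of the lipase ATGL, had 16, 18.3 and 13.5 TPM and 0.585, 1.43 and 0.19 TPM (log2 change -3.34 ± 0.31 SE, adjusted p = 0.00326). PNPLA2, which encodes that lipase, moved the other way, from 92.9, 59.4 and 100 TPM to 338, 315 and 208 TPM (log2 change 1.76 ± 0.3 SE, adjusted p = 0.0127). LPIN1, a phosphatidate phosphatase, changed by 2.21 ± 0.34. The droplet coat gene PLIN4 passed the filter through day 14 only and FABP4 through day 0 only. FABP4 did not pass the filter without day 0 replicate 2 and was not called under median-ratio scaling (adjusted p = 0.0527). Of 20 fatty acid oxidation genes, 1 rose, the regulator PPARA, with 0.806, 0.15 and 0.837 TPM at day 0 and 3.33, 3.55 and 3.95 TPM at day 14, which passed the filter through day 14 only and so is no support, and 2 fell, HADH (-1.68 ± 0.22) and ACADVL (-0.94 ± 0.24). Calls were lost for PNPLA2 and LPIN1 without day 14 replicate 1, 2 or 3 (adjusted p up to 0.0817), PLIN4 without day 0 replicate 1 (adjusted p up to 0.0547), HADH without day 14 replicate 2 or 3 (adjusted p up to 0.065), and ACADVL without day 0 replicate 1 or 3 or day 14 replicate 1, 2 or 3 (adjusted p up to 0.155). The left-out counts for lipid droplets were 2, 3, 0, 0 and 0 and 2, 2, 2, 2 and 2, and for oxidation 1, 1, 0, 0 and 0 and 1, 1, 1, 0 and 0, rises before falls.

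Antioxidant genes under NRF2 were partly raised with all 6 libraries. Of 20 tested, 9 rose and none fell (median 0.96), 10 rose without day 0 replicate 2 and 2 under median-ratio scaling. Those 2 were near the share over all genes (9.66%). Under that scaling without day 0 replicate 2, 8 rose and 2 fell, against 20.8% and 25.5% of all genes. In all 4 fits, 2 rises were called. Left-out counts came to 6, 4, 4, 0 and 0. TXNRD1, a thioredoxin reductase, had 126, 31.3 and 132 TPM at day 0 and 367, 790 and 752 TPM at day 14 (log2 change 2.88 ± 0.61 SE, adjusted p = 0.0219). HMOX1, which degrades haem, had 80.1, 47.7 and 81.9 TPM and 178, 364 and 1243 TPM (log2 change 2.65 ± 0.68 SE, adjusted p = 0.0363). The 3 day 14 libraries of HMOX1 differed severalfold, with replicate 1 the lowest and replicate 3 the highest. Iron handling genes had 3 rises among 11 (4 and 1 fall without day 0 replicate 2), namely HMOX1, the ferritin chain FTL (1.17 ± 0.32) and the ferritin receptor NCOA4 (1.12 ± 0.27). Under median-ratio scaling the threshold was missed by HMOX1 (adjusted p = 0.0793), FTL (adjusted p = 0.47) and NCOA4 (adjusted p = 0.0956), and the list then had 0 rises and 1 fall. The threshold was missed by TXNRD1 without day 14 replicate 1, 2 or 3 (adjusted p up to 0.104) and HMOX1, FTL and NCOA4 without day 0 replicate 1 or 3 or day 14 replicate 1, 2 or 3 (adjusted p up to 0.17), and the list's rises numbered 0, 0, 0, 0 and 0 in the left-out counts. Of 7 metallothionein and zinc genes none was called, and 1 rose without day 0 replicate 2. MT1A, a metallothionein outside that list, had 123, 665 and 120.4 TPM and 16.9, 22.7 and 30.6 TPM (log2 change -3.18 ± 0.68 SE, adjusted p = 0.022), and its copies are near-identical. The call did not hold for MT1A without day 14 replicate 1, 2 or 3 (adjusted p up to 0.101). The antioxidant response element letters TGACNNNGC occurred in 3 of 15 NRF2-list promoters (20.0%), against 11.0% of all promoters and 12.2% of those matched to tested genes, and in 1 of the 6 called members with a promoter.

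Genes of the growth machinery gave more falls than rises with all 6 libraries, and most were not called. None of 79 cytosolic ribosomal protein genes was called with all 6 libraries, whereas without day 0 replicate 2, in which these genes held more of the TPM, 36 rose, and with median-ratio scaling as well 14 rose and 8 fell. Mitochondrial ribosomal protein genes gave 2 rises and 14 falls of 75 (median -0.41), or 10 and 19 without that library (median -0.22). MRPS9 had 31.4, 75.5 and 34.5 TPM at day 0 and 11.1, 17.7 and 12.6 TPM at day 14 (log2 change -1.61 ± 0.39 SE, adjusted p = 0.0302), MRPL23 changed by -1.83 ± 0.48, MRPL52 by -1.52 ± 0.4, MRPS6 by 1.09 ± 0.3 and MRPS31 by 0.98 ± 0.26. Nuclear-encoded respiratory chain genes gave 7 falls and no rise among 72 (median -0.51), or 3 rises and 19 falls without it (median -0.14). NDUFB10 of complex I had 159, 289 and 202 TPM and 102, 65.1 and 86.7 TPM (log2 change -1.33 ± 0.3 SE, adjusted p = 0.0254), NDUFS5 changed by -1.74 ± 0.46 and ATP5G1 of ATP synthase by -1.51 ± 0.36. Day 0 replicate 2 was the highest library for MRPS9, MRPL23, MRPL52, NDUFB10, NDUFS5 and ATP5G1. Median-ratio scaling ended the calls of MRPL23 (adjusted p = 0.0557), MRPL52 (adjusted p = 0.0506), MRPS6 (adjusted p = 0.492), MRPS31 (adjusted p = 0.482) and NDUFS5 (adjusted p = 0.0578). Leaving out 1 library ended the calls of MRPS9, MRPL23, NDUFB10, NDUFS5 and ATP5G1 without day 0 replicate 3 or day 14 replicate 1, 2 or 3 (adjusted p up to 0.145) and MRPL52, MRPS6 and MRPS31 without day 0 replicate 1 or 3 or day 14 replicate 1, 2 or 3 (adjusted p up to 0.176). Left-out counts of falls were 5, 2, 1, 0 and 0 for mitochondrial ribosomal proteins and 4, 0, 0, 0 and 0 for the respiratory chain.

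Of 35 genes of ribosome biogenesis and RNA polymerase I, 2 rose and 5 fell, or 5 and 11 without day 0 replicate 2. BOP1, a factor for large subunit assembly, had 149.6, 254 and 169 TPM at day 0 and 73.9, 43.4 and 40 TPM at day 14 (log2 change -1.86 ± 0.33 SE, adjusted p = 0.0135), NOP16 changed by -1.32 ± 0.3 and RRP9 by -1.17 ± 0.3. MYC, which drives such genes, went up, from 30.9, 10.6 and 30.3 TPM to 128, 80.9 and 99.7 TPM (log2 change 2.18 ± 0.44 SE, adjusted p = 0.0193), and TAF1D of the polymerase I factor SL1 changed by 1.18 ± 0.27, which median-ratio scaling ended (0.59, adjusted p = 0.369). In the MYC and MAX network, 4 of 11 rose and none fell (8 and 1 without day 0 replicate 2, 3 and 2 under median-ratio scaling): MYC and the antagonists MXI1, MNT (1.97 ± 0.46) and MXD4. Nucleotide synthesis had 1 rise and 4 falls of 21, or 2 and 11 without that library. ADSL, an enzyme of purine synthesis, changed by -1.23 ± 0.2, the cytosolic SHMT1 by -1.29 ± 0.28, NME1 by -1.21 ± 0.32 and the muscle-type ADSSL1 by 1.16 ± 0.2. NME1 was not called under median-ratio scaling (adjusted p = 0.0531). With 1 library left out, calls ended for BOP1 and ADSL without day 14 replicate 2 or 3 (adjusted p up to 0.0851), NOP16, TAF1D, SHMT1 and NME1 without day 0 replicate 1 or 3 or day 14 replicate 1, 2 or 3 (adjusted p up to 0.167), RRP9 without day 0 replicate 1 or 3 or day 14 replicate 2 or 3 (adjusted p up to 0.156), and MYC, MNT and ADSSL1 without day 14 replicate 1, 2 or 3 (adjusted p up to 0.117). Left-out counts of falls were 1, 1, 2, 0 and 0 for biogenesis and 1, 1, 1, 0 and 0 for nucleotides.

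Proteasome subunits had 7 falls and no rise among 37 (median -0.57), or 16 falls and 1 rise without day 0 replicate 2 (median -0.33). PSMC3, an ATPase of the cap, had 163, 155 and 157 TPM at day 0 and 82.4, 72.1 and 71.2 TPM at day 14 (log2 change -1.07 ± 0.19 SE, adjusted p = 0.0134), the catalytic PSMB6 changed by -1.98 ± 0.36 and the ubiquitin receptor PSMD4 by -1.25 ± 0.3. Cytosolic and mitochondrial chaperones had 11 falls and 1 rise among 29 (median -0.77), or 20 and 2 without that library (median -0.65). HSPA8, the constitutive HSC70, had 1288, 931 and 1065 TPM and 206, 225 and 273 TPM (log2 change -2.21 ± 0.23 SE, adjusted p = 0.00439). CCT5 of the TRiC chaperonin had 208, 203 and 202 TPM and 94.1, 78.8 and 80.1 TPM (log2 change -1.27 ± 0.19 SE, adjusted p = 0.00909), and the small chaperone HSPB1 changed by -1.95 ± 0.27. The rise was LONP1, a mitochondrial protease (1.0 ± 0.21), not called under median-ratio scaling (0.42, adjusted p = 0.293). No longer called were PSMC3 and PSMB6 without day 14 replicate 1, 2 or 3 (adjusted p up to 0.0931), PSMD4 without day 0 replicate 3 or day 14 replicate 1, 2 or 3 (adjusted p up to 0.138), HSPA8 without day 14 replicate 2 (adjusted p up to 0.0545), CCT5 and HSPB1 without day 14 replicate 2 or 3 (adjusted p up to 0.0751), and LONP1 without day 0 replicate 1 or day 14 replicate 1, 2 or 3 (adjusted p up to 0.118). Left-out counts of falls were 3, 3, 0, 0 and 0 for the proteasome and 6, 6, 3, 0 and 1 for chaperones.

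Most clock genes rose. Of 18 tested, 13 rose and none fell (median 1.67, 1.23 above all genes), with 15 rises and 2 falls without day 0 replicate 2, 10 and 1 under median-ratio scaling and left-out counts of 11, 11, 3, 1 and 2. NR1D1, the repressor REV-ERB alpha, had 7.53, 3.47 and 7.58 TPM at day 0 and 74.7, 92.9 and 72.7 TPM at day 14 (log2 change 3.55 ± 0.32 SE, adjusted p = 0.00297). PER1, a core clock repressor, had 2.86, 0.905 and 3.47 TPM and 19.8, 40.4 and 23.4 TPM (log2 change 3.11 ± 0.43 SE, adjusted p = 0.00775), and TEF, a clock output factor, changed by 2.59 ± 0.3. The hour of collection was not given, and its part in these values was not tested. Of 18 immediate early genes, 10 rose and none fell (median 1.19), 11 without day 0 replicate 2 and 6 under median-ratio scaling, with left-out counts of 7, 6, 5, 1 and 3. EGR1 had 1.24, 0.629 and 1.69 TPM and 8.15, 21.2 and 25.7 TPM (log2 change 3.04 ± 0.45 SE, adjusted p = 0.00905), and JUN had 82.8, 22.1 and 67.4 TPM and 138, 392 and 382 TPM (log2 change 2.43 ± 0.61 SE, adjusted p = 0.0344; 1.85, adjusted p = 0.0505 under median-ratio scaling). For both genes the day 14 libraries spread severalfold or nearly so, with replicate 1 the lowest. Calls were lost for PER1 and EGR1 without day 14 replicate 2 or 3 (adjusted p up to 0.0658), TEF without day 14 replicate 2 (adjusted p up to 0.0549), and JUN without day 0 replicate 3 or day 14 replicate 1, 2 or 3 (adjusted p up to 0.14).

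**Figure D3:**
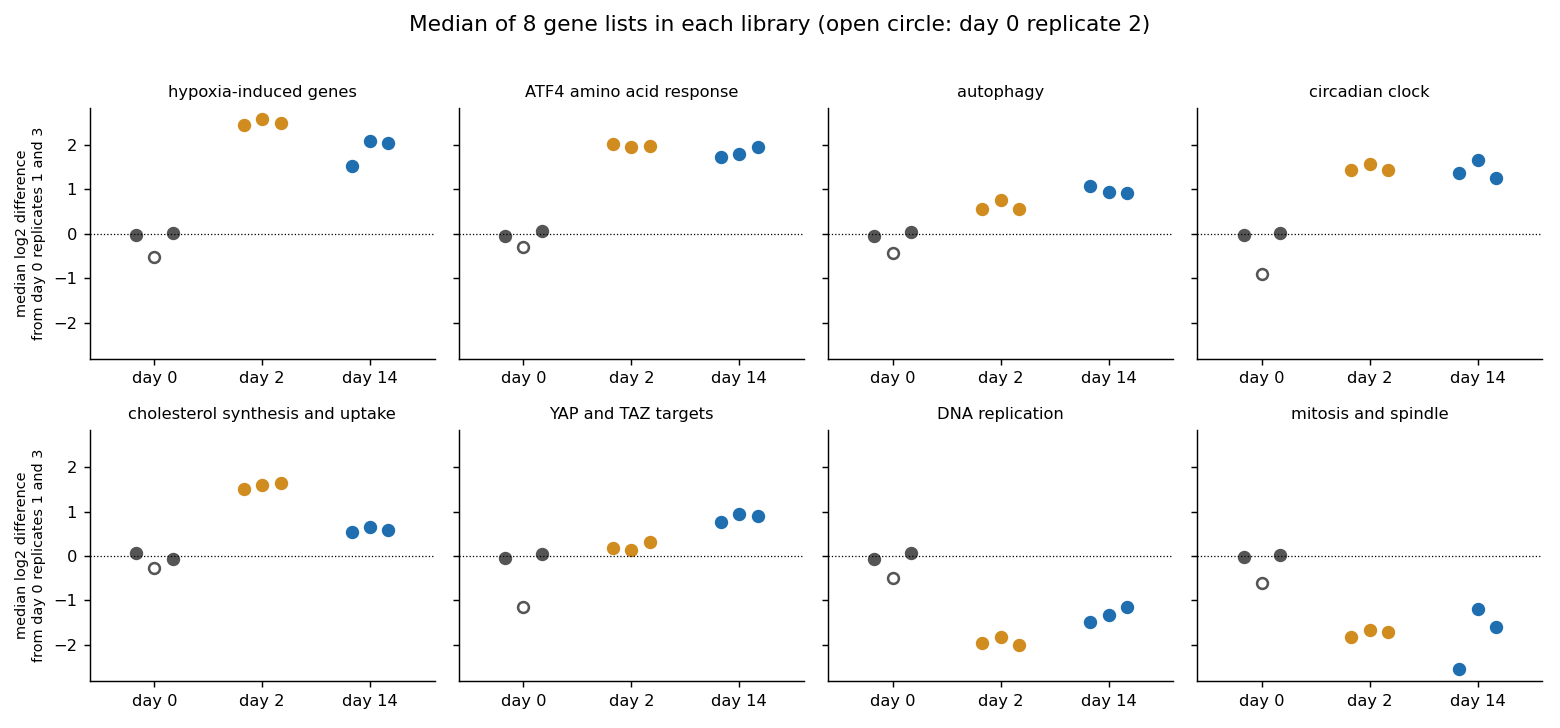
Median difference in log2(TPM + 1) from the mean of day 0 replicates 1 and 3, over the tested members of 8 lists, in each library, with 1 point per library and the open circle for day 0 replicate 2. Hypoxia-list medians were 1.52 to 2.09 at day 14, and day 14 replicate 1 (-2.56) lay below the other 2 (-1.61 and -1.19) for the mitosis list.

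Epithelial identity was checked against markers. The summed TPM of 5 ductal epithelial markers (KRT8, KRT18, KRT19, EPCAM, CDH1) was 3160.1 to 4402 at day 0 and 1149 to 1354 at day 14, and 4 of the 5 fell, or 5 without day 0 replicate 2. Markers of islet and endothelial cells were under 1 TPM throughout, with INS, GCG and SST at 0, and 8 of 10 acinar markers were under 1 TPM, with a summed level of 0.76 to 0.928 at day 0 and 1.75 to 3.58 at day 14. Blood markers summed to 1.61 to 5.64 TPM at day 0 and 3.73 to 5.46 TPM at day 14, with PTPRC under 0.1 TPM. Of 10 fibroblast markers, 7 were under 1 TPM and DCN was at 0. The list summed to 14.3 to 69.0 TPM at day 0 and 10.7 to 17.2 TPM at day 14, mostly COL1A1, and 2 members (COL1A1 and THY1) were tested, both called lower without day 0 replicate 2. The islet markers summed to 0.375 to 0.962 TPM at day 0 and 0.163 to 0.524 TPM at day 14, and the endothelial markers to 0.056 to 0.481 and 0.252 to 0.544 TPM.

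KRT19, a ductal keratin, had 574, 939 and 571 TPM at day 0 and 200.1, 193 and 174 TPM at day 14 (log2 change -1.83 ± 0.26 SE, adjusted p = 0.00829). KRT8, another simple keratin, had 1794, 2253 and 1563 TPM and 434, 557 and 512 TPM (log2 change -1.89 ± 0.24 SE, adjusted p = 0.00648), and the adhesion molecule EPCAM changed by -1.34 ± 0.32. CLDN1, a tight junction claudin, had 49.2, 23.7 and 47.2 TPM and 216, 231 and 182 TPM (log2 change 2.42 ± 0.32 SE, adjusted p = 0.00701), and CLDN3 and TJP1 changed by 1.44 ± 0.23 and 2.07 ± 0.49. In all, 6 of 25 keratin and junction genes rose, 6 fell and 13 did not pass, or 9 and 9 without day 0 replicate 2, with left-out counts of 5, 6, 0, 0 and 0 and 2, 3, 1, 0 and 0. CDH1, E-cadherin, missed the threshold with all 6 libraries (log2 change -0.53 ± 0.42 SE, adjusted p = 0.372) and was called lower without day 0 replicate 2 (-0.91, adjusted p = 0.0494). VIM, vimentin, did likewise (log2 change -1.07 ± 0.32 SE, adjusted p = 0.0555, then -1.39, adjusted p = 0.00162), and was called lower under median-ratio scaling (-1.66, adjusted p = 0.0151). Of 19 mesenchymal genes and transition factors, 2 rose, CDH2, N-cadherin (1.34 ± 0.31), and TWIST2 (1.08 ± 0.28; 0.6, adjusted p = 0.0984 under median-ratio scaling), and none fell, against 3 and 4 without day 0 replicate 2. The threshold was missed by KRT19, CLDN1, CLDN3 and TJP1 without day 14 replicate 1, 2 or 3 (adjusted p up to 0.12), KRT8 without day 14 replicate 2 or 3 (adjusted p up to 0.0581), EPCAM without day 0 replicate 1 or day 14 replicate 1, 2 or 3 (adjusted p up to 0.128), and CDH2 and TWIST2 without day 0 replicate 1 or 3 or day 14 replicate 1, 2 or 3 (adjusted p up to 0.144).

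Tumour subtype genes were mostly below the filter. Of 21 classical subtype genes 5 were tested, GATA6, an endodermal factor, rose from 4.02, 1.56 and 4.12 TPM to 16, 20 and 18.1 TPM (log2 change 2.23 ± 0.33 SE, adjusted p = 0.00928), and AGR2, a secretory disulfide isomerase, fell from 229.9, 583 and 229 TPM to 34.7, 51.2 and 31.8 TPM (log2 change -2.99 ± 0.42 SE, adjusted p = 0.00796). Of 18 basal-like genes 5 were tested, with SLC2A1 higher and DHRS9 lower (-1.05 ± 0.29). YAP and TAZ targets had 7 rises and no fall among 17 (median 1.31), 10 rises without day 0 replicate 2, 4 rises and 1 fall under median-ratio scaling and left-out counts of 4, 7, 1, 1 and 1. CTGF, a matricellular growth factor, had 84.7, 70 and 120.3 TPM and 799.7, 662 and 825 TPM (log2 change 3.07 ± 0.26 SE, adjusted p = 0.0028), and kept its call with any 1 library left out. ARHGEF17 changed by 2.37 ± 0.67 and AMOTL2 by 2.29 ± 0.62. Under median-ratio scaling the threshold was missed by ARHGEF17 (adjusted p = 0.0588). Leaving out 1 library ended the calls of GATA6 and AGR2 without day 14 replicate 1, 2 or 3 (adjusted p up to 0.0702), DHRS9 without day 0 replicate 1 or 3 or day 14 replicate 1, 2 or 3 (adjusted p up to 0.176), and ARHGEF17 and AMOTL2 without day 0 replicate 1 or day 14 replicate 1, 2 or 3 (adjusted p up to 0.156).

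Of 25 collagen, laminin and matrix genes, 4 rose and 2 fell, or 4 and 10 without day 0 replicate 2. The rises were no more frequent than over all genes (17.7%, or 33.5% without that library). THBS1, thrombospondin, had 9.15, 1.55 and 7.35 TPM at day 0 and 22.2, 38.8 and 42.9 TPM at day 14 (log2 change 2.52 ± 0.56 SE, adjusted p = 0.0254), the other rises being P4HA1, PLOD2 and COL12A1, and COL13A1 and LAMB3 fell (-1.71 ± 0.47 and -1.23 ± 0.29). In the urokinase and protease list, 3 of 14 rose and 3 fell, or 5 and 1 of 12 without day 0 replicate 2. PLAU, urokinase, had 545, 241 and 396 TPM and 74.1, 56.3 and 38.4 TPM (log2 change -2.76 ± 0.38 SE, adjusted p = 0.00779). The sheddase ADAM17 changed by 1.75 ± 0.32 and the protease inhibitor SERPINE2 by 1.08 ± 0.31. TIMP3, another inhibitor, passed the filter through day 14 only and the metalloproteinases MMP7 and MMP1 through day 0 only, and the latter pair did not pass it without day 0 replicate 2. SERPINE2 was not called under median-ratio scaling (adjusted p = 0.274), and TIMP3 did not pass the filter there. Among 26 actin, tubulin and actin regulator genes, 2 rose and 6 fell, or 4 and 14 without that library. TUBB3 had 348, 225 and 300 TPM and 106, 112 and 107 TPM (log2 change -1.4 ± 0.23 SE, adjusted p = 0.0117), TUBA1B and TUBB4B changed by -1.19 ± 0.25 and -1.36 ± 0.34, and TUBB2B and TUBA1A by 1.61 ± 0.26 and 1.43 ± 0.37. TUBA1A was not called under median-ratio scaling (adjusted p = 0.288), and tubulin genes are similar enough in sequence for their single values to be uncertain. ACTB, beta-actin, missed the threshold with all 6 libraries (log2 change -0.65 ± 0.29 SE, adjusted p = 0.143) and was called without day 0 replicate 2 (-0.88, adjusted p = 0.00482) and under median-ratio scaling (-1.25, adjusted p = 0.0478). With 1 library left out, calls ended for THBS1, ADAM17, TUBB3 and TUBB2B without day 14 replicate 1, 2 or 3 (adjusted p up to 0.117), COL13A1, LAMB3, SERPINE2, TUBA1B, TUBB4B and TUBA1A without day 0 replicate 1 or 3 or day 14 replicate 1, 2 or 3 (adjusted p up to 0.188), and PLAU without day 14 replicate 2 or 3 (adjusted p up to 0.0589). Left-out counts, rises before falls, were 4, 4, 2, 0 and 0 and 0, 0, 0, 0 and 0 for matrix, 2, 2, 0, 0 and 0 and 1, 1, 1, 0 and 0 for proteases, and 1, 1, 0, 0 and 0 and 1, 1, 0, 0 and 0 for the cytoskeleton.

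Of 14 NF-kB cytokine and feedback genes, 1 rose and 3 fell, or 3 and 4 without day 0 replicate 2. CXCL1, a neutrophil chemokine, had 17.1, 17.2 and 7.68 TPM at day 0 and 0.295, 0.912 and 1.18 TPM at day 14 (log2 change -3.02 ± 0.38 SE, adjusted p = 0.00626). CCL2, a monocyte chemokine, had 151, 228 and 176 TPM and 40, 60.8 and 72.2 TPM (log2 change -1.68 ± 0.29 SE, adjusted p = 0.0132). BCL2A1 was the third fall, and the rise was RELB (1.28 ± 0.33). Of 17 interferon-stimulated genes, 5 rose and none fell, or 5 and 2 without day 0 replicate 2, and 0 rose and 1 fell under median-ratio scaling. ISG20 changed by 1.76 ± 0.39, IRF7 by 1.22 ± 0.26 and UBE2L6 by 1.14 ± 0.26. HLA-E (1.17 ± 0.34) was the single rise among 13 genes of class I antigen presentation, against 4 rises and 3 falls without day 0 replicate 2. Median-ratio scaling ended the calls of RELB (adjusted p = 0.134), ISG20 (adjusted p = 0.166), IRF7 (adjusted p = 0.252), UBE2L6 (adjusted p = 0.0734) and HLA-E (adjusted p = 0.0815). No longer called were CXCL1 without day 14 replicate 2 (adjusted p up to 0.0549), CCL2 without day 14 replicate 1, 2 or 3 (adjusted p up to 0.0785), RELB, ISG20, IRF7 and HLA-E without day 0 replicate 1 or 3 or day 14 replicate 1, 2 or 3 (adjusted p up to 0.165), and UBE2L6 without day 0 replicate 1 or day 14 replicate 1, 2 or 3 (adjusted p up to 0.133). Left-out counts were 3, 4, 1, 0 and 1 for NF-kB falls and 0, 1, 0, 0 and 0 for interferon rises.

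**Figure D4:**
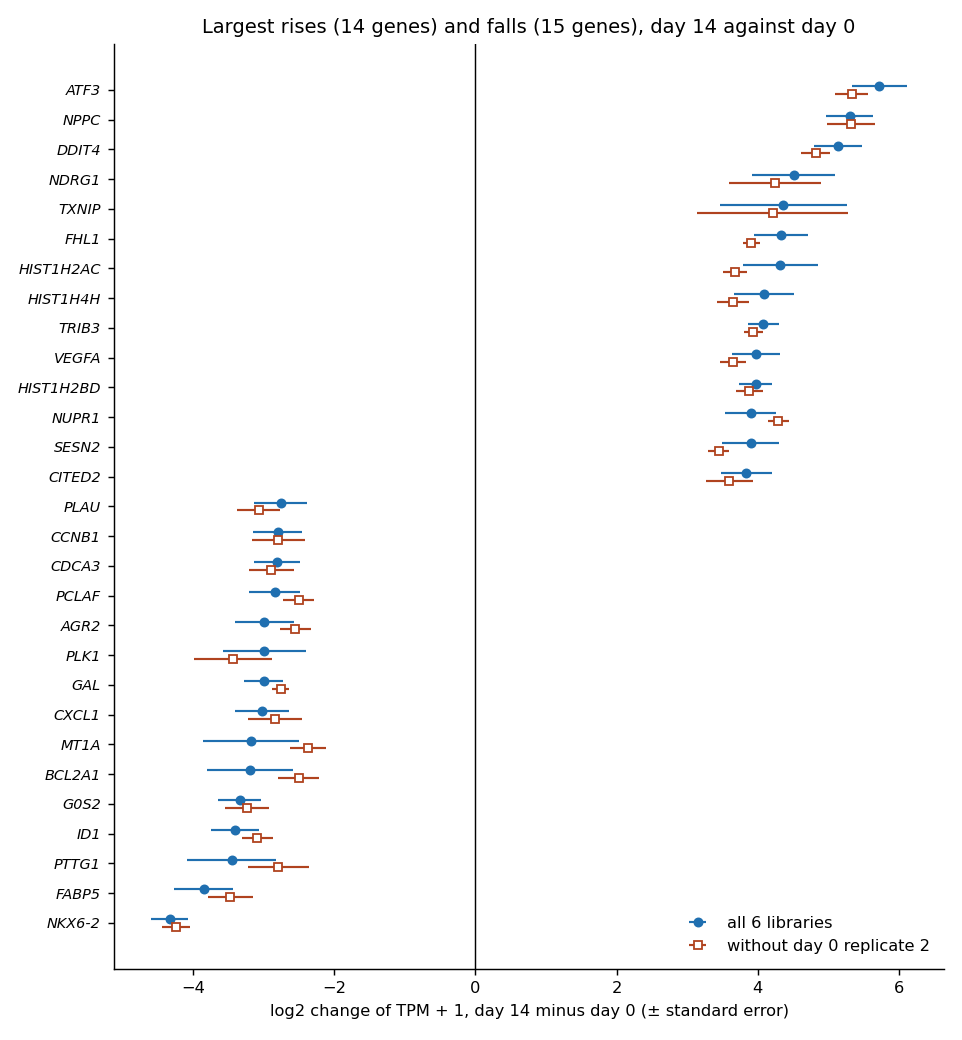
Log2 change of TPM + 1 from day 0 to day 14 (horizontal axis, with its standard error) of the 14 largest rises with a level above 0 at day 0 and the 15 largest falls under the naming rule, with all 6 libraries (filled circles) and without day 0 replicate 2 (open squares). The rule took only genes called the same way in both fits, so their shared sign is no support. With all 6 libraries, values ran from ATF3 at 5.72 to NKX6-2 at -4.33.

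Several of the largest changes lay outside these groups. NPPC, the precursor of C-type natriuretic peptide, had 0.739, 1.68 and 2.89 TPM at day 0 and 112, 108 and 90.1 TPM at day 14 (log2 change 5.3 ± 0.33 SE, adjusted p = 0.00171). FHL1, a LIM domain scaffold protein, had 7.58, 2.76 and 8.38 TPM and 138, 141 and 124 TPM (log2 change 4.33 ± 0.38 SE, adjusted p = 0.0028). CITED2, a binding partner of the coactivators CBP and p300 that competes with HIF, had 29.9, 20 and 37.6 TPM and 273, 569 and 469.7 TPM (log2 change 3.84 ± 0.36 SE, adjusted p = 0.00326). All 3 kept their calls with any 1 library left out. FLICR, a long noncoding RNA, was listed at 0 in all day 0 libraries and at 30, 38.7 and 29.2 TPM at day 14, while at day 2 it was listed at 0 in 2 libraries and at 29.4 TPM in the other. FLICR passed the filter through day 14 only, so its call is no support. Among the falls, NKX6-2, a homeobox factor, had 38.1, 49.9 and 44.5 TPM at day 0 and 1.18, 0.856 and 1.76 TPM at day 14 (log2 change -4.33 ± 0.26 SE, adjusted p = 0.00171). ID1, an inhibitor of differentiation factors and a BMP target, had 666, 1384 and 792 TPM and 64.3, 91.7 and 102 TPM (log2 change -3.4 ± 0.34 SE, adjusted p = 0.00385). GAL, the neuropeptide galanin, had 23.7, 40.1 and 24 TPM and 2.45, 2.95 and 2.62 TPM (log2 change -3.0 ± 0.28 SE, adjusted p = 0.00326). These 3 falls were called in all 6 fits with 1 library left out.

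Day 14 was set against day 2 in a fit of all 9 libraries, the test of where late deprivation differed from early. Over the same 13615 genes, 29 were higher at day 14 (0.213%) and 17 lower (0.125%). With day 0 replicate 2 left out, which enters this contrast through the common spread and not through the levels, 3406 were higher (25.0%) and 496 lower (3.64%). The median over all genes was 0.25 in both. CTGF had 131, 81.6 and 169 TPM at day 2, close to its day 0 levels, and was higher at day 14 (day 14 minus day 2: 2.63, adjusted p = 0.0241, or 0.00442 without day 0 replicate 2). NPPC had 21, 25.3 and 26.1 TPM at day 2 (2.05, adjusted p = 0.0373, or 0.00594 without day 0 replicate 2) and FHL1 had 30.8, 28.3 and 26.5 TPM (2.19, adjusted p = 0.0399, or 0.000498 without day 0 replicate 2). For these 3 genes the day 14 libraries lay above all day 2 libraries. The share of all genes that did so was not counted, so this is no support.

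Some sterol genes stood lower at day 14 than at day 2. STARD4 had 34.7, 32.5 and 40.5 TPM at day 2 (-1.56, adjusted p = 0.0401, or 0.0051 without day 0 replicate 2) and INSIG1 had 96.4, 98.1 and 100 TPM (-1.43, adjusted p = 0.0381, or 0.00529 without day 0 replicate 2), so both lay between their day 0 and day 2 levels at day 14. Of the cholesterol list, 5 of 26 were lower than at day 2 (these 2 with MVD, FDPS and SQLE), or 19 without day 0 replicate 2, and the list median was -0.92. SCD had 2138, 1785 and 2007 TPM at day 2 and was called lower at day 14 only without day 0 replicate 2 (-1.61, adjusted p = 0.0798, or 0.00503 without day 0 replicate 2). The same held for AGR2, with 207, 135 and 186 TPM at day 2 (-2.14, adjusted p = 0.0635, or 0.0043 without day 0 replicate 2), and for HMOX1, with 2208, 2845 and 1981 TPM (-2.42, adjusted p = 0.106, or 0.0245 without day 0 replicate 2).

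The hypoxia list had a median of -0.52 between day 2 and day 14, with no member called, or 2 higher and 12 lower without day 0 replicate 2. DDIT4 had 801, 1163 and 920.4 TPM at day 2 (-0.69, adjusted p = 0.276, or 0.0325 without day 0 replicate 2) and VEGFA had 175, 197 and 169 TPM (-0.5, adjusted p = 0.408, or 0.0448 without day 0 replicate 2). The ATF4 list had a median change of 0.06 from day 2 (no member called, or 1 higher and 3 lower without day 0 replicate 2), with TRIB3 at 277, 303 and 305 TPM and ATF4 at 705, 775 and 734 TPM at day 2. Replication genes had a median of 0.59, with no member called, or 28 of 45 higher than at day 2 without day 0 replicate 2, and FEN1 stood at 10.2, 12.5 and 9.62 TPM at day 2 (0.41, adjusted p = 0.337, or 0.044 without day 0 replicate 2). Mitosis genes had a median of -0.05, with 4 higher without that library. Other members called with all 9 libraries were GCLC, an enzyme of glutathione synthesis, ELF3, an epithelial factor, and ALDOC, a glycolytic aldolase, which were lower than at day 2, and the chaperone HSPH1 and BCL2L1, which were higher.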

How the data were processed

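Per the labels' protocols, a Qiagen kit gave the RNA and a commercial company built the libraries. TPM values for 27800 symbols in 9 libraries were deposited in a single table. Per the submitters' processing notes, Salmon was used, with hg19 named as the build. Its version, the annotation and the strand setting are not given in the sources used here. Columns were matched to samples by day and number in their names. No pair of the 6 libraries shared a nonzero value.

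TPM of the 3 day 0 and 3 day 14 libraries was analysed as log2(TPM + 1), for genes that reached 1 TPM in 3 or more of the 6, with limma 3.58.1 in R 4.3.3 (intensity trend, two-sided, Benjamini-Hochberg at 0.05). Day 14 against day 2 came from a fit of all 9. Members and lists were chosen with earlier results of these data known. Lists (51, of which 48 had tested members, with 51 genes in more than 1) are described by counts and medians, with no list test. The naming rule took the 15 largest rises and 15 largest falls called with and without day 0 replicate 2, without overlap between days and with a mean of at least 5 TPM, leaving out small RNA, clone-based and similar symbols. From each list it took no more than 3 called rises and 3 called falls, and it named 15 further genes in any case. One named gene and the list tied to it are not reported here. Other list members are named without values, and the 12 plotted genes were picked after values were seen.

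Alternatives were pseudocounts of 0.1 and 5, other filters, median-ratio, quantile and 2 rescaled TPM versions, other limma settings, a replicate block and each library left out. The 4-fit count, the fits that leave out day 0 replicate 2 with 1 day 14 library or with short RNA symbols, and the late contrast without it were chosen after seeing the data. On simulated data for 13615 genes, the fit of all 6 libraries recovered 14 of the 100 with a 2-fold change and 90 of the 100 with a 4-fold change, with 0 false calls among 104, and the fit without day 0 replicate 2 recovered 49 and 98 with 14 false calls among 161. The simulated noise was independent between genes, with a single spread per library. Shifts shared by many genes, as in day 0 replicate 2, were not simulated, so false calls from them are not covered. Promoter sequences and their coordinates came from RefSeq (GRCh38.p14), and 10487 of the 13615 tested symbols matched.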

Additional observations from a re-analysis of the deposited data

How the results depend on the processing

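Counts of rises and falls moved with the processing while directions held for every called named gene. Against 2415 rises and 586 falls, a mean of at least 5 TPM gave 1206 rises, median-ratio scaling 1300 and 1474, quantile normalization 1680 falls, TPM without short RNA symbols 1390 rises, array weights (which gave day 0 replicate 2 a weight of 0.0464) 5405 and 2662, and a fit of all 9 libraries 3851 and 951. Leaving out 1 library gave 64 to 4525 rises and 22 to 1807 falls. Without day 0 replicate 2, median-ratio scaling gave 3428 falls, TPM without short RNA symbols 3964 and 2875, and also leaving out day 14 replicate 1, 2 or 3 gave 4244, 3431 or 3334 rises and 2399, 1454 or 1351 falls. In 4 fits, 1288 rises were called. Against day 2, 29 and 17 became 3406 and 496 without day 0 replicate 2. The share of rises among calls was 49.2% under quantile normalization and 58.0% without short RNA symbols and day 0 replicate 2. At an unadjusted p under 0.05, 5281 genes passed.

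Of 170 called named genes, 136 were called under median-ratio scaling, 159 with a pseudocount of 0.1, 169 with 5, 135 with no filter and 143 with the stricter filter. Correlations of same-numbered deviations from the day means were 0.011, -0.014 and -0.028, against -0.027 to 0.032 for other numbers. Day 0 replicate 2 weighs on the day 0 mean, so these values cannot settle whether replicate numbers pair the samples. With the replicate block, 1263 genes rose and 262 fell, or 3672 and 1399 without day 0 replicate 2. Uncalled genes that changed sign were HIF1A (array weights -0.36; median-ratio scaling without day 0 replicate 2 -0.52; replicate block without it -0.20; no short RNA symbols without it -0.37; 1 library left out -0.20 to 1.47; without it and day 14 replicate 1 -0.45 or 2 -0.20), EPAS1 (-0.02 with array weights; -0.28 and -0.13 with median-ratio scaling and no short RNA symbols without day 0 replicate 2; -0.10 also without day 14 replicate 1), GAPDH (-0.07 with median-ratio scaling, -0.11 also without day 0 replicate 2) and MTOR (array weights -0.01; without day 0 replicate 2, median-ratio scaling -0.29, replicate block -0.01, no short RNA symbols -0.14, and also without day 14 replicate 1 -0.02 or 2 -0.01). The cause was not tested. TPM holds no depth, so limits for low genes could not be set.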
